A study of Mus musculus with 8 samples.

Results

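The genes described are 10 well-known transcriptional targets of p53: Cdkn1a, Mdm2, Bax, Bbc3, Ccng1, Phlda3, Trp53inp1, Sesn2, Eda2r and Zmat3. They were named by symbol, with earlier results of these data known. A feature (1 spot of the array with its probe) was taken as belonging to a gene where its gene symbol, brought up to date, was that of the gene. This gave 22 of the 62976 features, for 9 of the 10 genes, out of 20738 named genes on the array; Bax was not analysed here. Cdkn1a had 12 features, Trp53inp1 and Eda2r had 2 each, and the other 6 genes had 1 each. Total RNA came from livers of male mice of the outbred CD-1 stock. The controls were 4 liver samples taken after 7 days on diet with 0 ppm NaPB and the treated group was 4 liver samples taken after 7 days on diet with 2500 ppm NaPB; the labels name no transgene, further agent or age. NaPB is the sodium salt of phenobarbital, an activator of the nuclear receptor CAR in hepatocytes, and the title of the series calls it a nongenotoxic carcinogen of mouse liver. The comparison asked here is whether targets of p53, which DNA damage switches on, were higher on the NaPB diet.

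The transcription factor p53 is held low in unstressed cells by the ubiquitin ligase Mdm2, which binds it and marks it for degradation. DNA breaks and other stresses activate the kinases ATM, ATR, CHK1 and CHK2, p53 escapes Mdm2, and its targets are transcribed: inhibitors of the cell cycle, killers of damaged cells, and genes such as Mdm2 itself that switch the response off again. Raised RNA of these targets in liver is used in toxicology as a sign of a genotoxic compound, although several of them also answer to other stresses without p53.

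The values are spot intensities without a unit, deposited already scaled per array. The 75th percentile of each array, as found in the values, lay between 0.952 and 0.974. The number of arrays, 4 per diet, limits the precision. NaPB samples have a number each in their titles, but no label says that each array came from an animal of its own, so a p-value here reflects the spread among these samples alone, which may be technical. Control replicate 1 and NaPB replicate 4 stood apart from the rest. Their scores on principal component 1, which held 33.5% of the variance, were −99.2 and 82.1, against −36.9 to 36.3 elsewhere. Their limma array weights were 0.308 and 0.313, against 1.14 to 1.98 for the other arrays. Cyp2b10, the classical P450 target of CAR, was at 3.72, 0.863, 2.98 and 5.22 on control replicates 1 to 4 and at 521, 491, 430 and 77.7 on NaPB replicates 1 to 4. It was thus higher on every NaPB array, but least on replicate 4. Values without either of the arrays that stood apart are given below where they change a sign or a call. They are also given for some genes where they change the size of a result. The hepatocyte markers Alb, Ttr, Apoa1, Tat, Hnf4a and Serpina1a were measured on all arrays, with summed intensities of 3813 to 6226 in the controls and 2545 to 4456 on NaPB. Of the marker lists for 8 other cell types, the sum for Kupffer cells and macrophages was the 1 without overlap, at 30.4 to 33.1 on the control arrays and 21.5 to 25.2 on the NaPB arrays. None of its 8 genes passed the test, and Timd4 was near background on every array. Among all these markers S100a8, of neutrophils, was called, higher on NaPB; the part of these cells in the results below was not tested. In bulk tissue, fewer cells of a type and less RNA per cell cannot be told apart.

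None of the 9 measured p53 targets passed the test between the diets in either direction, at a limma adjusted p below 0.05 over all 20738 genes. Over all genes 1.01% were called, 0.391% higher and 0.617% lower on NaPB. Zmat3 alone of the 9 had an unadjusted limma p below 0.05, as had 10.1% of all genes. The values of the diets overlapped for each of the 9. Of all genes, 7.04% had diets that did not overlap, 2.72% higher and 4.31% lower on NaPB. On the log2 scale 4 of the 9 differences lay above 0 and 5 below, with a median of −0.08 against 0.01 for all genes. They ran from −0.74 for Eda2r to 1.01 for Zmat3. The smallest limma adjusted p among the members was 0.398.

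**Figure D1:**
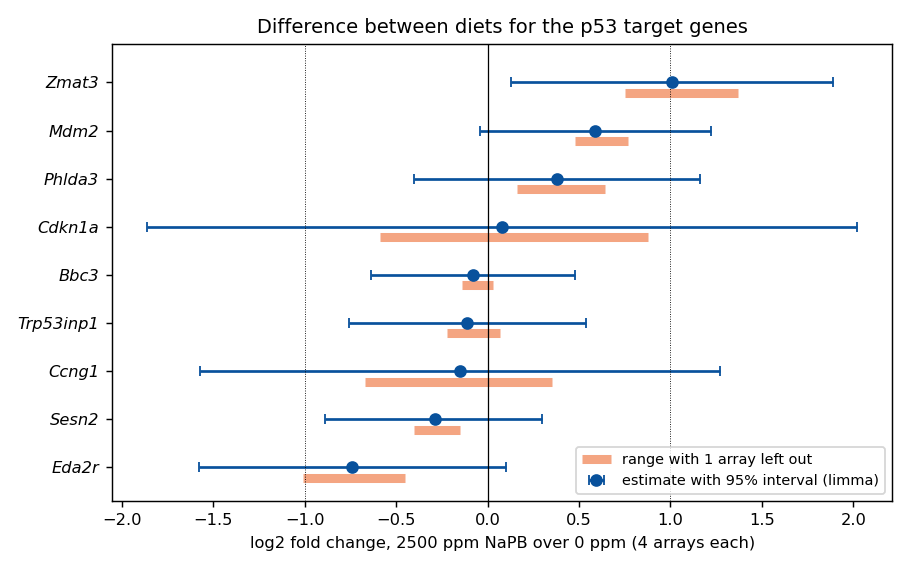
Log2 fold change of each measured p53 target (2500 ppm NaPB over 0 ppm, 4 arrays each) with its 95% interval from limma, and below it the range of the estimate when each of the 8 arrays was left out in turn; dotted lines mark a halving and a doubling. The intervals of all but Zmat3 (0.13 to 1.89) include 0, and those of Cdkn1a (−1.86 to 2.02) and Ccng1 (−1.57 to 1.27) are the widest.

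A p that misses the threshold does not show that the diets were alike, so the 95% intervals matter. For 4 of the 9 genes, Bbc3, Trp53inp1, Sesn2 and Eda2r, the interval ended below a doubling, as it did for 65.1% of all genes. The Eda2r feature was dim and near background on 2 arrays, so its bound says little about the transcript. For Cdkn1a, Mdm2, Ccng1, Phlda3 and Zmat3 a doubling lay inside the interval and was not excluded at this number of arrays. In the plot of intervals, Bbc3, Sesn2 and Trp53inp1 are the 3 whose whole interval lay between a halving and a doubling, as did that of 38.3% of all genes.

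**Figure D2:**
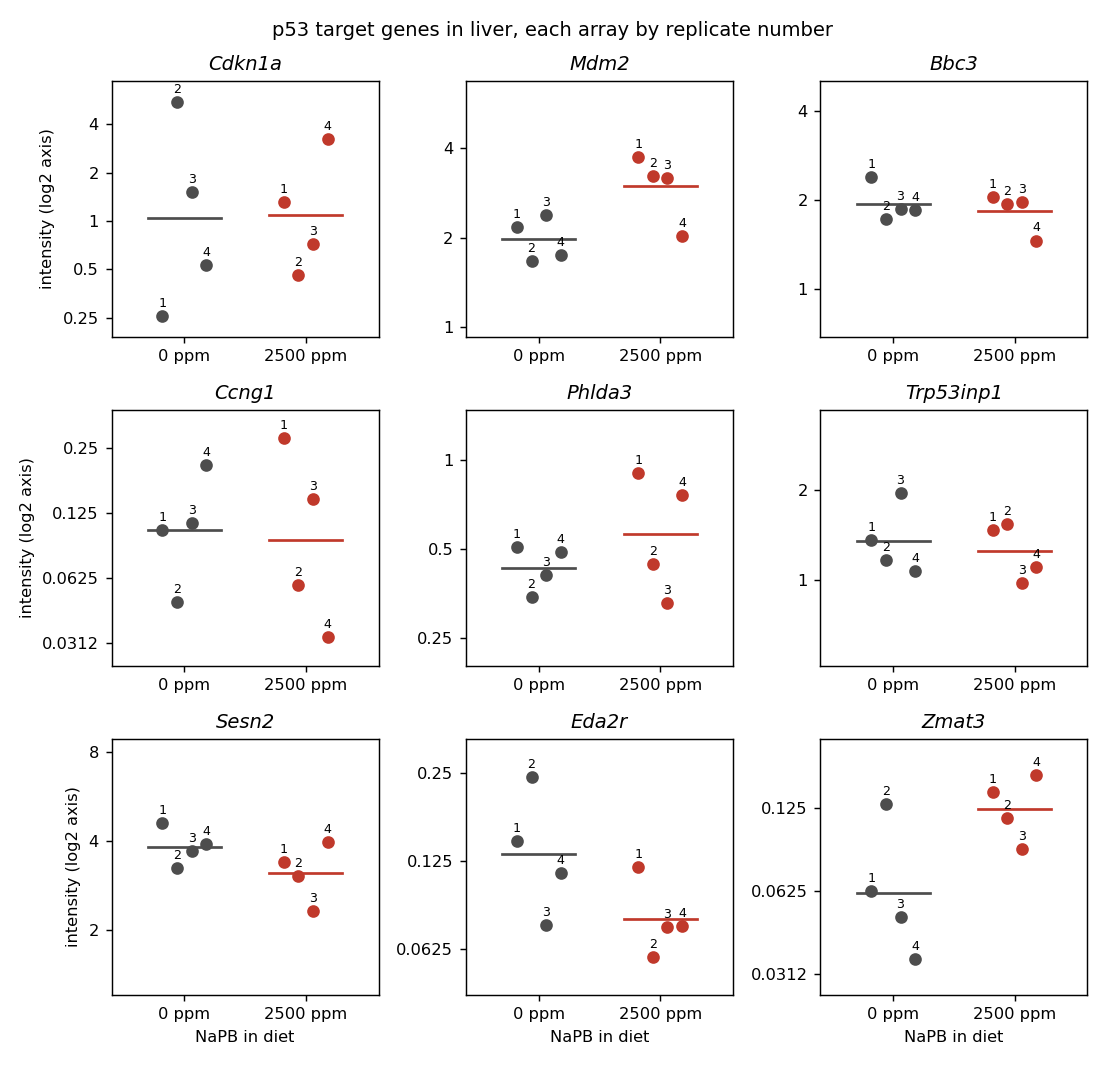
Deposited intensity (log2 axis, no unit) of the brightest feature of each measured p53 target on the 4 control arrays (0 ppm, grey) and the 4 NaPB arrays (2500 ppm, red); digits are replicate numbers and lines are geometric means. The diets overlap in all 9 panels, and in the Mdm2 panel NaPB replicates 1 to 3 (3.17 to 3.75) lie above every control while replicate 4 (2.03) does not.

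The promoter stretches are shown because they hold the letters that p53 is known to bind. p53 binds as a tetramer to pairs of a 10-base half-site. RefSeq promoter windows of the GRCm38.p6 assembly, from 250 bases before to 50 bases after an annotated start, were present for 7 of the 9 genes, 10 windows in all; none was matched for Trp53inp1 and Zmat3. An exact match to the p53 half-site consensus, which reads the same on both strands, was present in 3 of these 10 windows (30%), 1 each of Cdkn1a, Mdm2 and Ccng1, and in 8.36% of all 32851 windows. The upstream stretch around each match follows, 5′ to 3′ on the strand of the gene, with the half-sites in capitals.
Cdkn1a, chr17:29090866-29090977, plus strand: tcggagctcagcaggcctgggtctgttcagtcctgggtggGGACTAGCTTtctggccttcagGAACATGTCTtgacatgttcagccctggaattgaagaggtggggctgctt
Mdm2, chr10:117710895-117710984, minus strand: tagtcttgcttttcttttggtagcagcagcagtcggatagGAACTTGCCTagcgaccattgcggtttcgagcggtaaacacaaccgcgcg
Ccng1, chr11:40755422-40755511, minus strand: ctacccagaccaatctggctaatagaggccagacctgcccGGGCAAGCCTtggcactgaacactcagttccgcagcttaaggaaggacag
The window of Cdkn1a shown belongs to the upstream of its 2 annotated starts and holds 2 matches, the second of them 51 to 42 bases before the start. The match of Mdm2 lay 186 to 177 bases and that of Ccng1 185 to 176 bases before the start. A match is a description of the letters, not evidence that p53 was bound there.

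Among the targets that stop the cell cycle, Cdkn1a encodes p21, an inhibitor of cyclin-dependent kinases and the best-known p53 target. Its level differed widely between arrays of the same diet. It had 12 features, 10 of which carried the RefSeq transcript accession NM_007669. Of these 10, 9 gave medians of 0.489, 0.775, 1.54 and 0.645 on control replicates 1 to 4 and 1.38, 0.445, 0.569 and 2.45 on NaPB replicates 1 to 4. The highest arrays were therefore NaPB replicate 4, control replicate 3 and NaPB replicate 1, with both diets among them. The geometric mean of these medians was 0.784 for the controls (SD 0.71 in log2, n = 4). It was 0.961 for the NaPB arrays (SD 1.14 in log2, n = 4), a log2 difference of 0.29. The SD between the 9 features on the same array was 0.21, so the arrays of a diet differed by more than the features did. On each of these 9 features NaPB replicate 4 was the highest of the 8 arrays.

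The tenth feature had the highest mean and stood for the gene in the test across genes. It departed from the others on 1 array: on control replicate 2 it read 5.51, where the other 9 read 0.679 to 0.962. With that spot included its log2 fold change was 0.08 ± 0.88 (SE; limma adjusted p = 0.988); without control replicate 2 it was 0.88. It was −0.59 without control replicate 1, −0.45 without NaPB replicate 4 and −1.12 without both of these. With the median of all 12 features, an alternative added after the data were seen, it was 0.30 ± 0.54 (limma adjusted p = 0.904). Features tested singly ran from −0.12 to 0.44 on the log2 scale for the other 9. The feature of transcript accession NM_001111099 read 0.699 to 0.836 on 3 control arrays and 0.64 on control replicate 3, against 0.725, 0.881, 1.15 and 0.998 on NaPB, a log2 fold change of 0.31 ± 0.27. It was highest on NaPB replicate 3 and lowest on control replicate 3, an order unlike that of the 9 features, although NaPB replicate 4 was its second highest array. The twelfth, of accession U09507, read between 0.0369 and 0.185 and was near background on 2 arrays.

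The 3 arrays with the most Cdkn1a by the median of the 9 features were also those with the most Mt1, Mt2 and Ddit4. Mt1 and Mt2 encode metallothioneins, small metal-binding proteins induced by metals, glucocorticoids and the acute phase response; Ddit4, itself on the list of other p53 targets described below, is a stress-induced inhibitor of mTORC1. Mt1 was at 111 on control replicate 3, at 83.7 on NaPB replicate 1 and at 1723 on NaPB replicate 4, and between 13.9 and 58.3 on the other arrays. Mt2 on the same arrays was at 52.8, 33.3 and 922, and between 5.02 and 21.9 elsewhere. Ddit4 was at 8.24, 5.95 and 5.39 there and between 0.774 and 3.47 elsewhere. Neither metallothionein gene passed the test between diets, nor did Ddit4 (limma adjusted p = 0.743, 0.827 and 0.614). Lcn2, an acute phase gene, did not share this order across all 8 arrays. It was higher on every NaPB array than on any control, as were 2.72% of all genes. It was at 216, 18.5, 12.7 and 8.4 on NaPB replicates 4, 1, 2 and 3. On the controls it was at 5.91 on replicate 3 and 2.15 to 2.68 elsewhere. Within each diet it was thus highest on the array with the most Cdkn1a by the median of the 9 features. Its diet difference did not pass (limma adjusted p = 0.163). These genes were picked after their values were seen, and their part in the level of Cdkn1a was not tested.

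**Figure D3:**
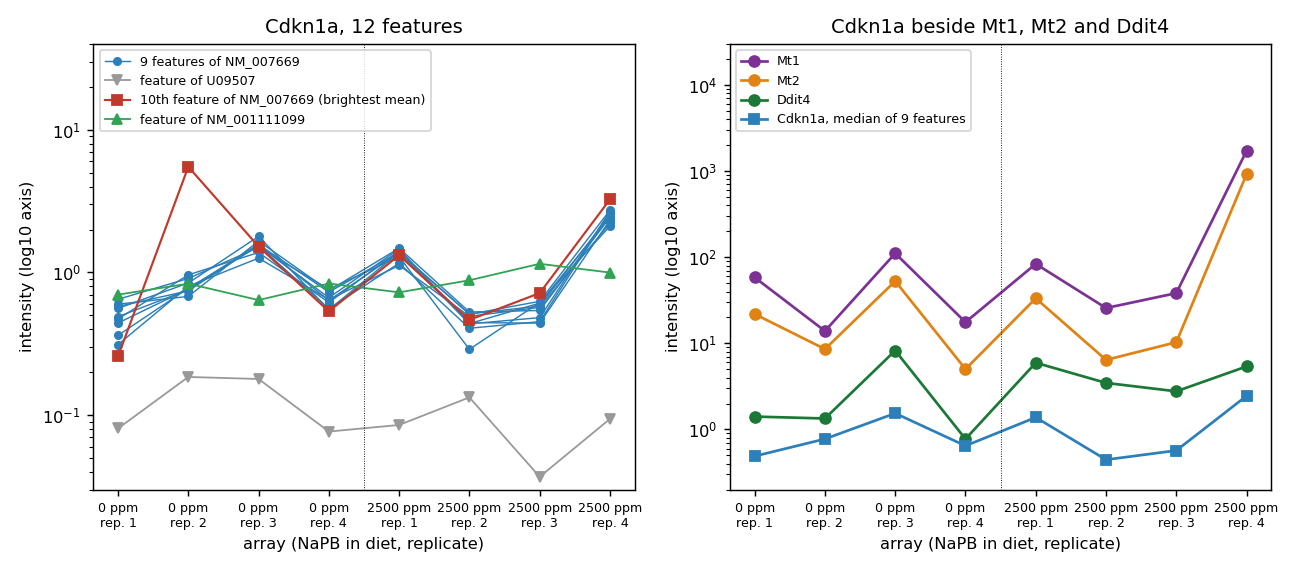
Left, intensity (log10 axis, no unit) of the 12 Cdkn1a features on each of the 8 arrays, with lines joining the values of a feature; right, the median of 9 Cdkn1a features beside Mt1, Mt2 and Ddit4 on the same arrays. The 9 features move together and are highest on NaPB replicate 4 (median 2.45), the tenth reads 5.51 on control replicate 2, and Mt1, Mt2 and Ddit4 are highest on the same 3 arrays as the 9 features.

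Ccng1 encodes cyclin G1, a p53 target that works with a phosphatase on Mdm2. Its single feature was dim. It read 0.105, 0.0486, 0.112 and 0.209 on control replicates 1 to 4 and 0.277, 0.058, 0.146 and 0.0333 on NaPB replicates 1 to 4. In each diet 2 arrays lay near background, defined as up to 2 times the lowest value of the array. The lowest and the highest of all 8 values were both on the NaPB diet. The log2 fold change was −0.15 ± 0.64 (limma adjusted p = 0.965). The sign depended on single arrays, with −0.67 when NaPB replicate 1 was left out and 0.35 when NaPB replicate 4 was left out.

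Among the genes that restrain the p53 response, Mdm2 came closest to a diet difference among members read well above background. Besides p53, CAR is known to raise it in mouse liver, and the part of either in these values was not tested. Its intensity was 2.18, 1.67, 2.39 and 1.75 on control replicates 1 to 4 and 3.75, 3.24, 3.17 and 2.03 on NaPB replicates 1 to 4. NaPB replicates 1 to 3 were above every control array, and NaPB replicate 4, the array with the least Cyp2b10 of its diet, lay among the controls. The geometric means were 1.98 (log2 SD 0.25, n = 4) and 2.98 (log2 SD 0.38, n = 4), a ratio of 1.51 with a 95% interval from 0.976 to 2.33. The log2 fold change of 0.59 ± 0.28 did not pass (limma adjusted p = 0.54). Without NaPB replicate 4 it was 0.77 (limma adjusted p = 0.192), and without control replicate 1 as well it was 0.82 (adjusted p = 0.117). Across all alternatives the adjusted p of Mdm2 ran from 0.0848, with array weights, to 0.822. The form of the Mdm2 values was not rare: 7.51% of all genes had NaPB replicates 1 to 3 above every control array and replicate 4 not, and Mdm2 was the 1 member of 9 among them. That pattern was looked for after the values were seen.

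Phlda3, a p53 target that blocks recruitment of the kinase Akt to membranes, read 0.509, 0.345, 0.408 and 0.488 on the controls and 0.905, 0.445, 0.329 and 0.763 on NaPB. Replicates 1 and 4 of NaPB were above every control array and NaPB replicate 3 was below all of them. The log2 fold change was 0.38 ± 0.35 (limma adjusted p = 0.801), and 0.24 without NaPB replicate 4. NaPB replicate 1 was thus high for both Phlda3 and Mdm2, and NaPB replicate 4 for Phlda3 but not Mdm2.

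Among the targets that promote cell death, Bbc3, which encodes the BH3-only protein PUMA, varied least. It read 2.39, 1.73, 1.86 and 1.85 on the controls and 2.04, 1.94, 1.97 and 1.46 on NaPB. The log2 fold change was −0.08 ± 0.25, with a ratio of 0.945 and a 95% interval of 0.641 to 1.39. It was 0.02 without control replicate 1 and 0.03 without NaPB replicate 4. Trp53inp1, whose product promotes p53-dependent death and autophagy, had 2 features with the same transcript accession. The brighter read 1.36, 1.16, 1.96 and 1.07 on the controls and 1.47, 1.54, 0.975 and 1.1 on NaPB, with a log2 fold change of −0.11 ± 0.30, and −0.05 without NaPB replicate 4. The dimmer gave 0.26 ± 0.33 in the test of single features, so they differed in sign and each had an interval that included 0. Both were highest on control replicate 3.

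Eda2r encodes a receptor of the TNF receptor family that binds ectodysplasin A2. Its brighter feature read 0.147, 0.242, 0.0755 and 0.114 on the controls and 0.119, 0.0589, 0.0743 and 0.075 on NaPB. On NaPB 3 of the 4 arrays lay below every control, and the lowest control (0.0755) was close to them. This gave the lowest log2 fold change of the 9, −0.74 ± 0.38 (limma adjusted p = 0.59). Its other feature gave −0.14 ± 0.45 and was near background on 5 of the 8 arrays, and the brighter on 2, so little of the range of this gene was measured.

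Sesn2 encodes sestrin 2, an inhibitor of mTORC1 that also protects against oxidants and is a target of the stress factors ATF4 and Nrf2. Its intensities were 4.61, 3.24, 3.69 and 3.9 on the controls and 3.41, 3.06, 2.32 and 3.96 on NaPB. NaPB replicates 2 and 3 were below every control array, and no NaPB array was above the highest control. The log2 fold change was −0.29 ± 0.27, with a ratio of 0.817 and a 95% interval of 0.541 to 1.23.

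Zmat3, a zinc finger RNA-binding protein and p53 target, had the highest log2 fold change and the smallest p of the 9. It read 0.0626, 0.129, 0.0502 and 0.0355 on the controls and 0.142, 0.115, 0.0885 and 0.164 on NaPB. All NaPB values were above the control mean, and 2 were above every control array. The log2 fold change was 1.01 ± 0.40 (limma adjusted p = 0.398), a ratio of 2.02 with a 95% interval of 1.1 to 3.71. On the control diet 3 of the 4 arrays were near background, so the lower level is poorly measured; leaving out the fourth, control replicate 2, gave 1.37 (limma adjusted p = 0.149), and a pseudocount of 1 gave 0.08.

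Taken by array, the NaPB arrays differed in how many members were high: 7, 4, 4 and 5 of the 9 were above the control mean on replicates 1 to 4. The control arrays had 8, 3, 4 and 3, so the highest count was on control replicate 1. Their median deviation from the control mean, on the log2 scale, was 0.35, 0.00, −0.39 and 0.04 on NaPB replicates 1 to 4, and between −0.22 and 0.14 on the control arrays. NaPB replicate 1 had 4 members above every control array (Mdm2, Ccng1, Phlda3 and Zmat3) and none below. NaPB replicate 3 had 1 above (Mdm2) and 4 below (Phlda3, Trp53inp1, Sesn2 and Eda2r). The control arrays scattered too: replicates 1 to 4 had 3, 3, 2 and 1 members above all other controls and 1, 5, 1 and 2 below. Each control was set against fewer arrays than a NaPB array was. These values used the brightest feature of a gene, so for Cdkn1a they carry the spot of 5.51 on control replicate 2. By the median of the 9 other features Cdkn1a was at 0.775 on that array. It was at 2.45 on NaPB replicate 4, above every control array (1.54 at most).

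A wider list of 30 other p53 targets, all measured, gave the same count: none passed the test in either direction, where 1.01% of all genes did. Of the 30, 4 (13.3%) had an unadjusted limma p below 0.05, against 10.1% of all genes. On the log2 scale 14 lay above 0, with a median log2 fold change of −0.02. Gdf15, a stress-induced cytokine that suppresses appetite, stood furthest out. It was at 0.146, 0.304, 0.47 and 0.689 on the controls and at 2.94, 6.95, 3.9 and 0.616 on NaPB replicates 1 to 4. Gdf15 was thus above every control array on NaPB replicates 1 to 3 and among them on replicate 4. Of all genes, 7.51% had replicates 1 to 3 above every control array and replicate 4 not, and Gdf15 was 1 of these. Its log2 fold change was 2.93 ± 0.70 (limma adjusted p = 0.0949), and 3.64 without NaPB replicate 4, where it was called (adjusted p = 0.015); over all alternatives the adjusted p ran from 0.0102 to 0.245. Gadd45b, a stress gene known to respond to CAR, had values of the same form, 1.29 to 2.1 on the controls and 19.9, 26.8, 14.3 and 2.04 on NaPB. The part of CAR or p53 in the values of Gdf15 and Gadd45b was not tested. Gadd45a, the member of that family that p53 controls, had a log2 fold change of 0.40 ± 0.36, with 0.487 on control replicate 1 and 1.07 to 1.51 on all the other arrays. Without control replicate 1 it was 0.05. The other genes of the list with the smallest p were Kitl, the ligand of the receptor Kit (−1.04 ± 0.38), Zfp365, linked to genome stability (0.69 ± 0.29), and Btg2, an antiproliferative gene (−0.81 ± 0.37), none of which passed. The values of Kitl on the diets did not overlap, 0.137 to 0.338 against 0.052 to 0.121. It was lower on NaPB, as were 4.31% of all genes without overlap. Btg2 was near background on 7 of the 8 arrays.

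Trp53, which encodes p53 itself, was on the list of regulators but was not analysed here. Of 17 measured regulators of p53 none passed, where 1.01% of all genes did. An unadjusted limma p below 0.05 was found for 3 (17.6%), against 10.1% of all genes. The median log2 fold change was 0.00. Trp73, which encodes the p53 relative p73, gave −0.83 ± 0.28 by the brightest of its 3 features, with values of 1.43 to 2.57 on the controls and 0.908 to 1.21 on NaPB. The mean of its 3 features gave 0.04, so they disagree. Chek1, the checkpoint kinase CHK1, gave −0.99 ± 0.35, and −0.70 without control replicate 1 and −0.57 without NaPB replicate 4 as well. Its diets again did not overlap, at 0.453 to 1.28 on the controls and 0.268 to 0.436 on NaPB. Of the 17 regulators 2 were lower on NaPB without overlap, as were 4.31% of all genes. Atr, the kinase above CHK1, gave 0.99 ± 0.35 and was called with array weights alone (limma adjusted p = 0.0426). It was 1.21 without NaPB replicate 4 and 1.38 without control replicate 1 as well. Its values were 1.63, 0.721, 1.29 and 1.1 on the controls and 2.35, 3.51, 2.2 and 1.42 on NaPB. Replicates 1 to 3 of NaPB were thus above every control array and replicate 4 was not, as for 7.51% of all genes. Mdm4, a relative of Mdm2 that inhibits p53, gave −0.44 ± 0.32 by the brighter of its 2 features, and −0.23 without NaPB replicate 4. The mean of its 2 features gave −0.11 ± 0.24.

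Of 25 measured DNA repair genes none passed, where 1.01% of all genes did. None had an unadjusted p below 0.05 by limma, against 10.1% of all genes. Of the 25, 13 lay above 0 and the median log2 fold change was 0.10. Without NaPB replicate 4, 5 genes had an unadjusted limma p below 0.05, as did 5 without control replicate 1 as well. With array weights 4 did, and none passed in these fits. Such a p also became more common over all 20738 genes. It was found for 2095 of them in the main fit and for 2891 without NaPB replicate 4. The count was 4140 without both arrays and 3940 with array weights. The smallest p belonged to Mre11a, a nuclease of double-strand break repair (0.91 ± 0.43, with 2 control arrays near background), Ogg1, the glycosylase that removes 8-oxoguanine (0.64 ± 0.33), H2ax, the histone variant phosphorylated at breaks (0.67 ± 0.39), and Msh6, of mismatch repair (0.54 ± 0.38). H2ax was at 0.564, 0.32, 0.602 and 0.432 on the controls and at 1.03, 0.906, 0.931 and 0.349 on NaPB, again with replicate 4 among the controls. Without that array H2ax gave 1.03, Ogg1 0.88 and Msh6 0.87. In this list 5 genes, H2ax, Parp1, Msh6, Ogg1 and Mgmt, had NaPB replicates 1 to 3 above every control array and replicate 4 not, 5 of 25 where 7.51% of all genes did. In the opposite direction there was 1 gene, Brca1, of homologous recombination, where 1.47% of all genes did so. In the other lists the higher pattern held for 1 of 9 members, Mdm2, and 3 of 30 other p53 targets, Gdf15, Rps27l and Tigar. It held for 2 of 17 regulators, Atr and Ppp1r13l, and 0 of 16 ATF4 targets. The lower pattern held there for 1 gene, the ATF4 target Chac1. These genes were named for the patterns after their values were seen.

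Of 16 ATF4 targets, given because ATF4 raises Sesn2 without p53, none passed, where 1.01% of all genes did. None had an unadjusted limma p below 0.05, against 10.1% of all genes. Of the 16, 8 lay above 0 and the median log2 fold change was −0.04. Atf4 itself gave −0.18 ± 0.28, and −0.07 without NaPB replicate 4. Trib3, a pseudokinase induced by ATF4, gave 0.83 ± 0.39, Atf5, a related factor, −0.72 ± 0.42 (−0.31 without NaPB replicate 4), and Ppp1r15a, a phosphatase subunit that ends the response, −0.39 ± 0.24. The diets did not overlap for Ppp1r15a, at 1.38 to 1.63 on the controls and 1.02 to 1.36 on NaPB. Of all genes, 4.31% were lower on NaPB without overlap. Chac1, a glutathione-degrading enzyme, was at 0.176 to 0.577 on the controls, at 0.0434, 0.0606 and 0.0776 on NaPB replicates 1 to 3 and at 2.23 on NaPB replicate 4. Without that array its log2 fold change went from −1.36 to −2.67 and it was called lower (limma adjusted p = 0.0211). Its values on NaPB replicates 1 and 2 were near background, so the size of this fall is poorly measured.

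**Figure D4:**
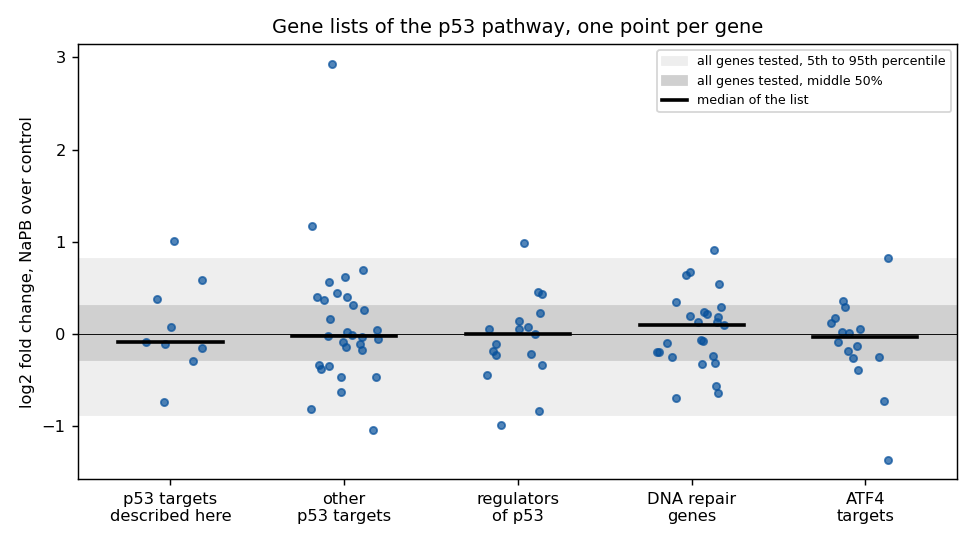
Log2 fold change (NaPB over control, 4 arrays each) of each gene in the 5 lists, 1 point per gene, with the median of each list as a bar and the spread of all genes tested as grey bands (middle 50%, −0.28 to 0.30; 5th to 95th percentile, −0.88 to 0.81). The list medians lie between −0.08 and 0.10, and Gdf15 at 2.93 is the point furthest out.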

How the data were processed

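Per the labels, RNA was labelled with Cy3 and the one-colour Agilent arrays were read with Agilent Feature Extraction 10.7 (the submitters' processing notes). The authors deposited 1 spot intensity per feature and array on a linear scale, already scaled per array; how background, flags and scaling were handled is not given in the sources used here. Symbols were updated by accession or synonym through RefSeq gene tables of GRCm38.p6, used for names. Of 62976 features, 31465 carried a symbol, of 20738 genes.

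The deposited intensity was taken to log2 without a pseudocount or filter, so all 9 measured members entered the fit. Each gene was represented by its feature with the highest mean. limma 3.58.1 in R 4.3.3 was fitted with diet as the only term, as a two-sided test, and p-values were adjusted by Benjamini-Hochberg across the 20738 genes; ± values are standard errors. The fit was tested on simulated data in which a gene had the same spread on every array. That test therefore does not cover arrays that stand apart, as control replicate 1 and NaPB replicate 4 did. Figures were drawn with matplotlib 3.10.9.

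The members and lists were chosen with earlier results of these data known. Named are all members, in each other list the 4 genes of smallest p, Atf4 and Cyp2b10; other genes were named after their values were seen. Across the lists 5 genes were not analysed here. Alternatives covered scaling, dim-gene filters, pseudocounts, features per gene, array weights, a replicate block and leaving out arrays.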

Additional observations from a re-analysis of the deposited data

Results flagged for a closer look

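A value was listed here where 1 array of a diet lay apart from the other 3 by a gap above Dixon's 95% critical value, as a share of the group's range on the log2 scale. In 58 groups tested, over 29 named genes, 5 were found; chance alone gives about 1 in 20. NaPB replicate 4 was the array apart in 4 of the 5. Cyp2b10 was at 77.7 there against 430 to 521 on the other NaPB arrays (0.898 of the range). Bbc3 was at 1.46 against 1.94 to 2.04 (0.851), the 1 member found. H2ax was at 0.349 against 0.906 to 1.03 (0.884). Chac1 was at 2.23 against 0.0434 to 0.0776 (0.852). Kitl was at 0.338 on control replicate 3 against 0.137 to 0.15 on the other controls (0.901).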

How the results depend on the processing

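No member was called under any of the 22 alternatives, in 191 fits of a member; the smallest limma adjusted p was 0.0848 (Mdm2, array weights). The sign changed in 21 of these fits, for Cdkn1a, Bbc3, Ccng1 and Trp53inp1; the cause was not tested. The other 5 members kept theirs. Log2 fold changes turned sign under these settings. A pseudocount of 1 gave −0.09 for Cdkn1a, 0.01 for Ccng1 and 0.00 for Chac1. Array weights gave −0.41 for Cdkn1a, 0.07 for Bbc3 and 0.23 for Ccng1. The mean and the median of a gene's features gave 0.08 and 0.08 for Trp53inp1, and 0.04 and 0.18 for Trp73. Leaving out control replicate 1 and NaPB replicate 4 together, which was chosen after seeing the data, as was the median of features, gave −1.12 for Cdkn1a, 0.13 for Bbc3, 0.35 for Ccng1, 0.03 for Atf4 and −0.00 for Gadd45a. Leaving out 1 array at a time gave −0.59 to 0.88 for Cdkn1a, −0.14 to 0.03 for Bbc3, −0.67 to 0.35 for Ccng1 and −0.22 to 0.07 for Trp53inp1. It turned no sign for Atf4 (−0.34 to −0.07) or Gadd45a (0.05 to 0.57).

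Over all genes 209 were called. The count was 328 with quantile normalization, 111 with arrays shifted to the same median, 812 with array weights and 570 without control replicate 1 and NaPB replicate 4. Leaving out 1 array at a time gave 88 (without NaPB replicate 1) to 365 (without NaPB replicate 4). Among the other p53 targets 1 gene, Gdf15, was called when genes below the median intensity were dropped, with array weights and without both arrays; leaving out 1 array gave 0 to 1, the 1 being without NaPB replicate 4. Among the regulators 1 gene, Atr, was called with array weights. Among the ATF4 targets 1 gene, Chac1, was called without both arrays, and leaving out 1 array gave 0 to 1, again without NaPB replicate 4. With the replicate number as a block, 135 genes and 0 members were called. The labels give replicate numbers but state no pairing. Same-numbered arrays had correlations of deviations of 0.23, −0.286, 0.038 and 0.231. Of the controls, replicate 4 alone was matched best by the NaPB array of its own number. So few values cannot decide whether the arrays were paired. Members near background (Ccng1, Eda2r and Zmat3) were limited by signal over background.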
